A study of Mus musculus with 4 samples.

Results

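Macrophages that lacked Trim24 were compared with wild-type macrophages before any cytokine was added, over every gene with at least 50 expected reads summed over the pair (10582 of the 16403 gene IDs listed in the 4 libraries of the series). The pair is the library titled TIF1a-KO nontreat, TIF1a being another name of Trim24, against the wild-type one with no treatment, so 2 of the 4 libraries enter it. The other 2 libraries are the same genotypes given IL-4 at 20 ng/mL for 6 h, and this IL-4 pair, which shares no library with the untreated pair, is set beside it. Whether the untreated and IL-4 cells came from the same mice, and how many mice were pooled, is not given in the sources used here, so the pairs may not be independent. All mice were C57BL/6 and 6 to 8 weeks old. The knockout carried floxed Trim24 alleles and LysM-Cre, a Cre recombinase inserted into the lysozyme gene Lyz2 that acts in macrophages, monocytes and neutrophils but not in stromal or mesothelial cells, and its controls were wild-type littermates. Every culture was made of peritoneal cells drawn 4 days after an injection of 4% thioglycolate, which recruits monocytes and neutrophils, left to adhere for 4 h and kept in 0.5% serum. Each genotype and treatment is 1 library. No value below has a replicate check, the tests compare the reads of 2 libraries and not 2 genotypes, and standard errors (SE) and intervals cover counting error only.

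Trim24 is a member of the tripartite motif family with a RING domain that attaches ubiquitin and a bromodomain that binds acetylated lysine, and in the nucleus it acts as a cofactor of transcription factors. Peritoneal macrophages take up debris, sense microbes through Toll-like and lectin receptors and can be driven by IL-4, through the transcription factor Stat6, into the alternatively activated (M2) state marked by Arg1 and Chil3. The comparison asks what differs between the genotypes before that signal arrives. A cavity wash also carries mesothelial cells, fibroblasts, lymphocytes and granulocytes, some of which adhere with the macrophages. In such a bulk sample, fewer cells of a type and less RNA per cell cannot be told apart.

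Trim24 reads (chromosome 6, 37870811 to 37968445 in GRCm38.p6) numbered 174.92 in the wild-type untreated library and 4 in the knockout. The wild-type count is not whole, which marks reads shared with another gene. The level of Trim24 in FPKM, the read share scaled by transcript length, was 2.55 and 0.06. As CPM, the read count scaled by library total alone, with 95% Wilson intervals, this was 15.9 (13.7 to 18.4) against 0.363 (0.141 to 0.933). With IL-4 the FPKM values were 1.48 and 0.14. Both knockout libraries were thus far under both wild-type ones, as their labels have it. The log2 ratio of knockout over wild-type, taken here and throughout on FPKM with 0.1 added, was -4.05 (SE 0.69) untreated and -2.72 (SE 0.47) with IL-4. A gene total does not say which exons the remaining reads came from. Of the 7 other measured genes of the Trim24 family and of its partners in the study, among them Trim28, Trim33, Stat6, Il4ra, Crebbp and Ep300, none was called. Stat6 stood at 69.68 FPKM for the wild-type and 72.56 for the knockout.

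Lyz2, which encodes the main lysozyme of macrophages and holds the Cre insertion, gave 11289.3 FPKM in the wild-type untreated library and 5193.22 in the knockout, with 10811 and 4761.07 in the IL-4 pair. The knockout level was 0.46 of the wild-type level untreated, a log2 ratio of -1.12 (SE 0.01), and the IL-4 pair had -1.18. Whether the knockout mice carried 1 or 2 copies of LysM-Cre is not given in the sources used here. Lyz1, its neighbour on chromosome 10 and the lysozyme of Paneth cells, went the other way at 367.9 and 516.13 FPKM untreated and 361.28 and 488.75 with IL-4. The log2 ratio of Lyz1 was 0.49 (SE 0.03), under the fold used here. Both have a count that is not whole in at least 1 library, which marks reads divided between genes, so how the reads were divided between them is uncertain. The 2 lysozymes together had 134612 wild-type and 66718 knockout reads, 49.6% of the wild-type value. The first 150 coding bases of each are given below, to show how closely the copies resemble each other and where they differ. They are the coding strand of GENCODE M21 transcripts Lyz2-201 (GRCm38 chr10:117280792-117282242, minus strand, introns left out) and Lyz1-201 (chr10:117291180-117292838, minus strand), and capitals mark bases that differ between them.
Lyz2: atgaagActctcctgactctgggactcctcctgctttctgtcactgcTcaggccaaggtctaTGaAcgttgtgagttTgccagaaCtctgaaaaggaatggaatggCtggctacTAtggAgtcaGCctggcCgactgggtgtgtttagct
Lyz1: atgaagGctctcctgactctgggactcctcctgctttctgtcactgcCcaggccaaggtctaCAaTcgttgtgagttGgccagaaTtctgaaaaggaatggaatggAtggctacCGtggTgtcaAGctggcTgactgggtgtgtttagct
Over the 444 coding bases, stop codon excluded, the genes differed at 22 positions (95.1% identical), of which 14 lie in the stretch shown, and the longest run without a difference was 118 bases.

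The 2 untreated libraries were otherwise close. The wild-type one held 11035641 expected reads and the knockout one 11029779, the median log2 ratio of measured genes was -0.01, and 96.5% of measured genes lay within 1.5-fold. Past 1.5-fold alone were 175 genes higher in the knockout (1.65% of those measured) and 200 lower (1.89%). A gene was called where it was past 1.5-fold and had an adjusted p under 0.05 in a two-sided Fisher's exact test on the reads of both libraries, which left 100 genes higher (0.945%) and 94 lower (0.888%). In the IL-4 pair the same rule called 420 of 10563 genes higher (3.98%) and 81 lower (0.767%). The calls were small in size, with a median log2 ratio of 0.91 among the higher and -0.89 among the lower genes. The genes called lower were the fainter set, with a median of 3.68 FPKM in the library where they were higher, against 7.31 for the genes called higher and 10.4 for all measured genes in the wild-type.

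**Figure D1:**
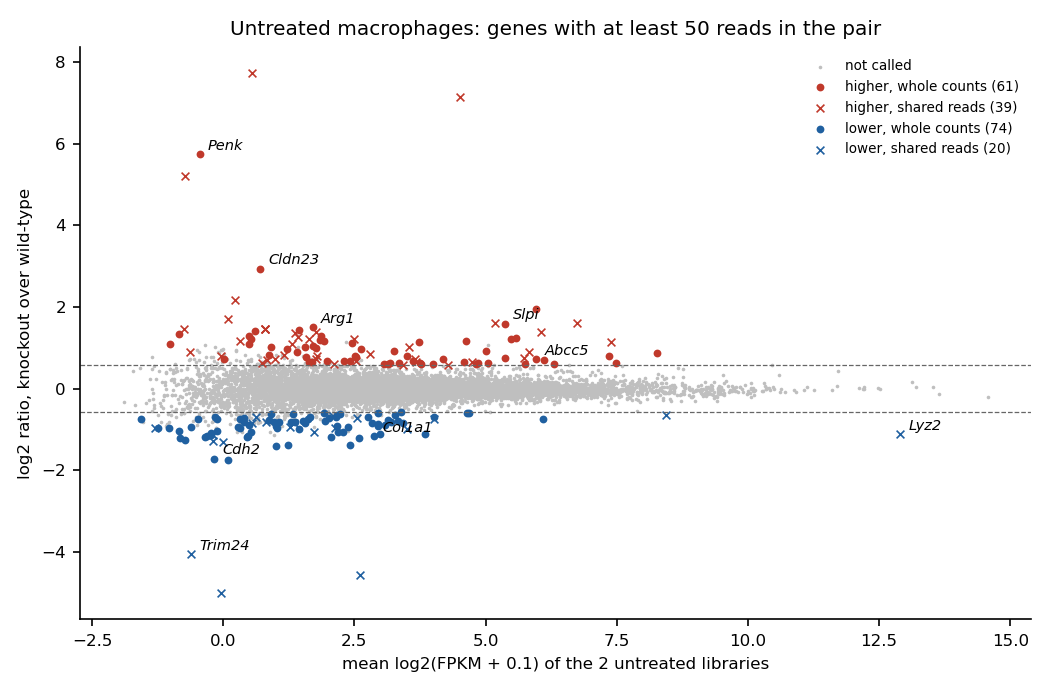
Log2 ratio of knockout over wild-type (vertical) against the mean log2(FPKM + 0.1) of the 2 untreated libraries (horizontal), 1 point per gene with at least 50 reads in the pair. Red and blue mark genes called higher and lower, circles those with whole expected counts and crosses those with shared reads, and dashed lines mark 1.5-fold. Trim24, Lyz2 and a few other crosses lie far from a band that is otherwise centred near 0.

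Several of the most extreme ratios belonged to genes that share reads with a near-identical copy. Counts that were not whole were found for 22.9% of measured genes, for 39 of the 100 genes called higher and for 20 of the 94 called lower. Tmem254b, a gene for a small membrane protein, had no read for the wild-type and 335.03 for the knockout, while its copy Tmem254c had 463.89 and 15.92. The IL-4 pair had the same exchange, with Tmem254b at 0.32 and 23.1 FPKM and Tmem254c at 30.52 and 0.97. The first 150 of their 369 coding bases are the same, as are all the others (100% identical), and are shown once for the transcripts Tmem254b-201 (GRCm38 chr14:26205208-26206753, minus strand, introns left out) and Tmem254c-202 (chr14:26065592-26067137, minus strand), with no capitals because no base differs.
Tmem254b and Tmem254c: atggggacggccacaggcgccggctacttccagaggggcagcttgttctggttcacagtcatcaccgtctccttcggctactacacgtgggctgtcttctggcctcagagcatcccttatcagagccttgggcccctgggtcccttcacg
Summed over Tmem254a, Tmem254b and Tmem254c, the wild-type had 482 reads and the knockout 360, or 74.7%, a far smaller difference than in either copy alone.

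In other such groups the untreated sums differed less than single copies did. The pseudogene Ubb-ps went from 13.56 to 2018.75 reads, yet with Ubb, a gene for polyubiquitin, the sum was 17297 and 16831 reads, 97.3% of the wild-type value. Most of this sum is Ubb, so it says little of the pseudogene itself. With IL-4 Ubb-ps had 0.72 and 1946.93 reads, and the sum was 20626.5 and 17807.2. Evi2b, listed at 0 in the wild-type, reached 140.24 reads in the knockout, and the sum over the overlapping genes Evi2, Evi2a and Evi2b was 2133 and 2160. A gene that matched no symbol (ID 627914) fell from 272.91 to 3.56 reads while 3 others of its group, Gm14308, Gm4724 and Gm14434, were higher, and the group's sum was 414.9 and 422.9. In the IL-4 pair, however, the same 4 genes summed to 0 reads for the wild-type and 411.2 for the knockout. For Oaz1, an inhibitor of polyamine synthesis, and Oaz1-ps the sum was 94.7% of the wild-type, for 5 H2-Q class I genes 103%, and for 3 copies of the survival gene Bcl2a1 91.9%. These groups were put together after their values were seen. Their single members are not described further. Serpina3n (10.38 to 54.43 reads) and BC021767 (11.95 to 44.43) complete the 5 highest genes with shared reads, and both are uncertain for the same reason.

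Of the 15 genes with the highest ratios among the 61 called higher with whole counts, those that encode secreted proteins are described first. Penk, which encodes the precursor of the enkephalin peptides, had 0 reads in the wild-type untreated library and 83 in the knockout (5.26 FPKM), and 3 and 147 reads in the IL-4 pair. Both wild-type libraries were at or under the floor of 3 reads per library, and the untreated knockout was 27.7-fold above that floor. The IL-4 log2 ratio was 5.02 (SE 0.78). The upper 95% Wilson bound of the wild-type share was 0.348 CPM, against 7.53 CPM in the knockout. Slpi, a secreted inhibitor of leukocyte proteases, stood at 23.66 and 71.57 FPKM untreated and at 19.23 and 79.71 with IL-4. Its log2 ratio was 1.59 (SE 0.11) untreated and 2.05 (SE 0.12) with IL-4, so that both knockout libraries were above both wild-type ones. Fstl1, a secreted glycoprotein that modulates TGF-β family signals, was at 29.12 and 67.89 FPKM, and at 20.66 and 50.27 in the IL-4 pair. Thbs1, the matrix protein thrombospondin-1, rose from 2.23 to 5.55 FPKM, while its IL-4 values of 2.23 and 3.3 were under the fold. F13a1, the coagulation factor XIII subunit made by macrophages, was at 2.29 and 5.31 FPKM and at 1.34 and 3.25 with IL-4.

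The remaining members of the 15 leading genes had varied roles. Cldn23, a claudin of tight junctions, was at 0.49 and 4.42 FPKM untreated and 0.34 and 3.49 with IL-4, log2 ratios of 2.94 (SE 0.47) and 3.03 (SE 0.55). The lncRNA Gm12505 was at 31.86 and 122.51 FPKM, and at 46.86 and 202.11 with IL-4. After these came Cdk2ap2, a partner of the kinase CDK2 (30.93 and 73.03 FPKM), and Shmt1, which feeds serine carbon into folate metabolism (0.83 and 2.36 FPKM). Both were also called in the IL-4 pair. Arfgef3, a gene related to exchange factors of ARF GTPases, was called in both pairs at under 1 FPKM. Cxcr1, a receptor for neutrophil-attracting chemokines, had 19 and 53 reads untreated but 5 and 6 with IL-4. That was under the read minimum, so it could not be called there. The polarity gene Pard6a was measured but not called with IL-4, where its log2 ratio was 0.12. Echdc3 missed the call with IL-4 but had a log2 ratio of 0.80 (SE 0.36) there, past the fold in the same direction. Vsig8 had a log2 ratio of 0.91 (SE 0.52) with IL-4. Its 11 and 22 reads there were under the read minimum, so it could not be called. Untreated, Echdc3 rested on 17 and 42 reads and Vsig8 on 16 and 42.

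**Figure D2:**
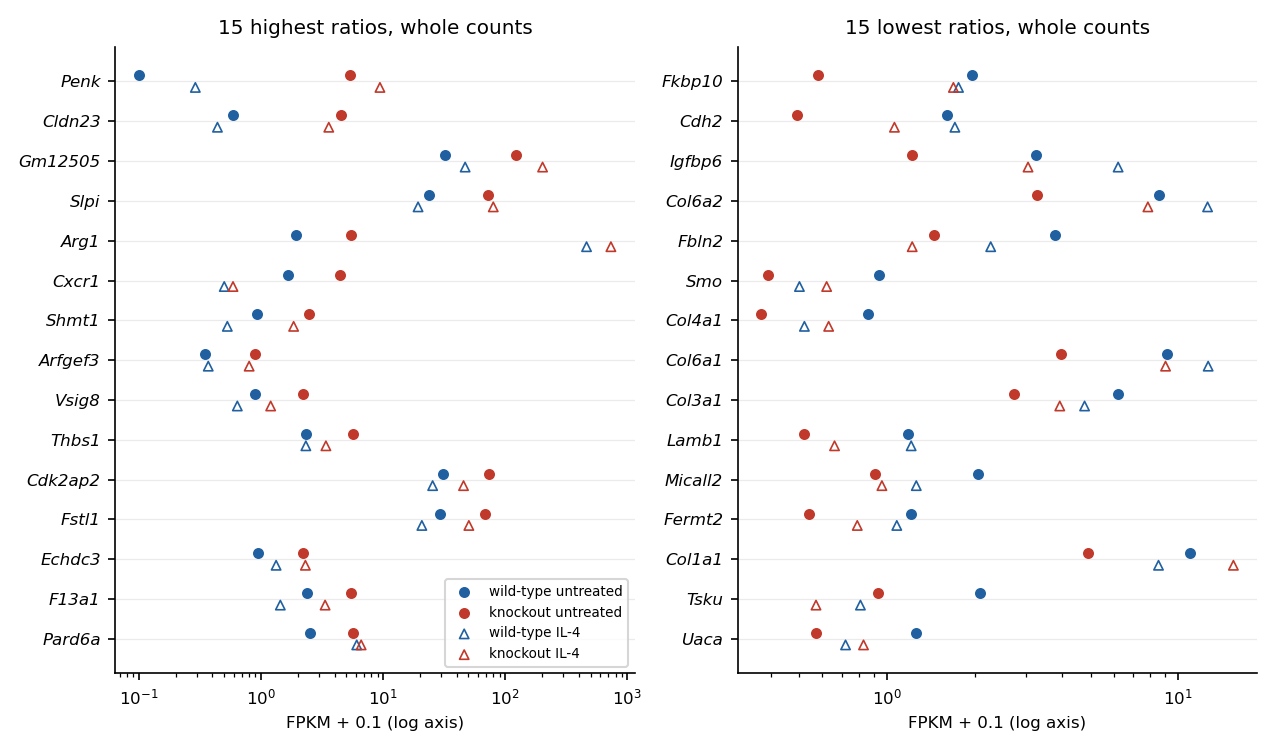
FPKM + 0.1 on a log axis for the 15 genes with the highest and the 15 with the lowest ratio among genes called with whole counts, in each of the 4 libraries. Blue is wild-type and red knockout, filled circles are untreated and open triangles IL-4. For Penk, Cldn23, Gm12505, Slpi and Fstl1 both red symbols lie right of both blue ones, while for Smo, Col4a1, Uaca and Col1a1 the open triangles do not keep the order of the circles.

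The M2 genes with a call were low in both untreated libraries. Arg1, the arginase of alternatively activated macrophages, was at 1.84 FPKM (30 reads) for the wild-type and 5.4 (88 reads) for the knockout, against 463.16 and 733.19 with IL-4. The untreated knockout was 2.84-fold higher on the FPKM + 0.1 scale, and the IL-4 log2 ratio was 0.66 (SE 0.02). Chil3, a chitinase-like secreted protein, had 7.17 and 11.09 FPKM, and 555.48 and 982.85 with IL-4. Its log2 ratio of 0.62 (SE 0.17) was just past the fold, and the call was lost with a pseudocount of 1 (0.57). These were the 2 called of the 5 measured M2 genes named in the study, where 0.945% of all measured genes were called higher, and the others had log2 ratios of 0.47 for the mannose receptor Mrc1, 0.49 for the transcription factor Irf4 and -0.18 for the transglutaminase Tgm2. Retnla (10 and 24 reads) and Ccl24 (3 and 6 reads) were under the read minimum, and Ccl17 was listed at 0 in both. In the IL-4 pair 2 of 7 measured members were called higher, again Arg1 and Chil3, where 3.98% of all genes measured in that pair were. As the list comes from the study of these samples, its direction is no independent evidence.

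Genes of microbial sensing and uptake were called in both directions, against shares over all measured genes of 0.945% higher and 0.888% lower. Of 18 measured Toll-like receptors and adaptors, 2 were called higher and none lower. They were Tlr1, the partner of Tlr2 for bacterial lipopeptides, at 8.07 and 16.48 FPKM (shared reads), and Tlr9, the sensor of unmethylated DNA, at 1.84 and 3.48. Of 16 scavenger and lectin receptors, 2 were called higher and 1 lower, with a median log2 ratio of 0.09. Colec12, a scavenger receptor with a collagen stalk, was at 20.84 and 63.16 FPKM untreated and 16.22 and 47.94 with IL-4 (shared reads). Marco, which binds particles and bacteria, was at 19.04 and 29.76 FPKM. Clec4e, the lectin Mincle that detects mycobacterial glycolipid, was the 1 called lower, at 89.04 and 52.67 FPKM. Cfp, or properdin, which stabilises the alternative complement convertase, was the 1 called of 14 complement genes at 54.41 and 88.43 FPKM. The chemokine Ccl6 was at 144.28 and 223.39 FPKM and was the 1 called of 11 chemokines, whose median log2 ratio was -0.22. In the IL-4 pair Colec12 and Tlr9 were again called higher, with log2 ratios of 1.56 and 0.74. That pair called 3.98% of all its genes higher and 0.767% lower. The other genes named here were not called there, at 0.44 for Tlr1, 0.48 for Marco, -0.50 for Clec4e, 0.37 for Cfp and 0.17 for Ccl6.

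Several genes outside the lists and the leading 15 were also higher in both knockout libraries, and were picked out after their values were seen. Wfs1, a membrane protein of the endoplasmic reticulum, was at 61.38 and 186.47 FPKM untreated and 96.57 and 253.6 with IL-4 (shared reads). Atp1b3, a sodium pump subunit, was at 227.02 and 412.8 FPKM, and at 261.17 and 440.26 with IL-4. The exporter Abcc5 had 48.53 and 79.73 FPKM, and the heparan sulfatase Sulf2 had 23.26 and 44.14. The G protein-coupled receptor Gpr35 had 1.95 and 4.65 FPKM, with shared reads, and was also called in the IL-4 pair. Of the 100 genes called higher, 89 had the same sign in the IL-4 pair, 54 were called higher there too and 0 were called lower. Some of the 100 were under the read minimum there and could not be called. Evi2b, for example, had 0 and 0 reads with IL-4, and Cxcr1 had 5 and 6. Of all genes measured in the IL-4 pair 3.98% were called higher and 0.767% lower, and their median log2 ratio was 0.02.

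Of the 15 genes with the lowest ratios among the 74 called lower with whole counts, 5 are collagens and others act in adhesion or signalling. Fkbp10, a chaperone of collagen folding, was at 1.86 FPKM for the wild-type and 0.48 for the knockout (54 and 14 reads). Cdh2, or N-cadherin, had 82 and 21 reads, and Igfbp6, a binding protein of insulin-like growth factors, 45 and 16. Fbln2, a fibulin of elastic fibres, was at 3.68 and 1.35 FPKM, and was called lower in the IL-4 pair as well, at 2.17 and 1.12. Collagens followed. Col6a2 was at 8.48 and 3.18 FPKM, Col6a1 at 9.05 and 3.85 and Col3a1 at 6.13 and 2.63, with log2 ratios of -1.39 (SE 0.15), -1.21 (SE 0.13) and -1.19 (SE 0.13). Col1a1, the main chain of type I collagen, was at 10.89 and 4.81 FPKM, a log2 ratio of -1.16 (SE 0.10). The basement membrane genes Col4a1 (56 and 20 reads) and Lamb1 (70 and 27 reads) were fainter. Also among the 15 lowest were Smo, the transducer of hedgehog signals, the focal adhesion gene Fermt2, Micall2, Tsku and Uaca, each with 37 to 73 reads in the wild-type. Of the 15, Cdh2, Igfbp6, Fbln2, Col6a2 and Lamb1 were called lower in the IL-4 pair too, and Col1a1 was called higher. That pair called 0.767% of all its genes lower and 3.98% higher. The rest of the 15 were not called there, Smo and Tsku being under the read minimum. Egfr and Timp3, an inhibitor of metalloproteases, were called lower with shared reads, at 1.26 and 0.46 FPKM and at 1.46 and 0.53. On the separate list of extracellular matrix and protease genes, 16 were measured, Slpi and Thbs1 called higher, Timp3 and Col4a1 lower, and the median log2 ratio was -0.10. The shares over all measured genes were 0.945% higher and 0.888% lower.

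Of the 19 fibroblast and stromal cell markers, 12 were measured, 10 were called lower and 0 higher, where 0.888% of all measured genes were called lower. Their median log2 ratio was -1.03, beside -0.01 for all measured genes. The 10 were Col1a1, Col1a2, Col3a1, Col5a1, Col6a1, Col6a2, Dcn, Pdgfra, Fbln2 and Sparc. Col6a3 and Fn1 were not called, and Fn1, which macrophages also express, was at 56.08 and 46.96 FPKM. Without Fn1 the summed level of the list was 90.6 FPKM for the wild-type and 42.8 for the knockout, 47.2% of the wild-type level. In the IL-4 pair the same sum was 87.9 and 79.7 FPKM, 90.7%, with 3 members called lower and 2 higher. That pair called 0.767% of all its genes lower and 3.98% higher. The knockout untreated library thus had the lowest sum, and the other 3 lay within 79.7 to 90.6 FPKM. Sparc gives the pattern in 1 gene, at 21.05 and 9.68 FPKM untreated and 19.9 and 16.12 with IL-4. Pdgfra, a growth factor receptor of fibroblasts, was at 3.91 and 2.38 FPKM untreated and at 2.5 and 2.17 with IL-4. The part of stromal cell content in the lower matrix genes was not tested.

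**Figure D3:**
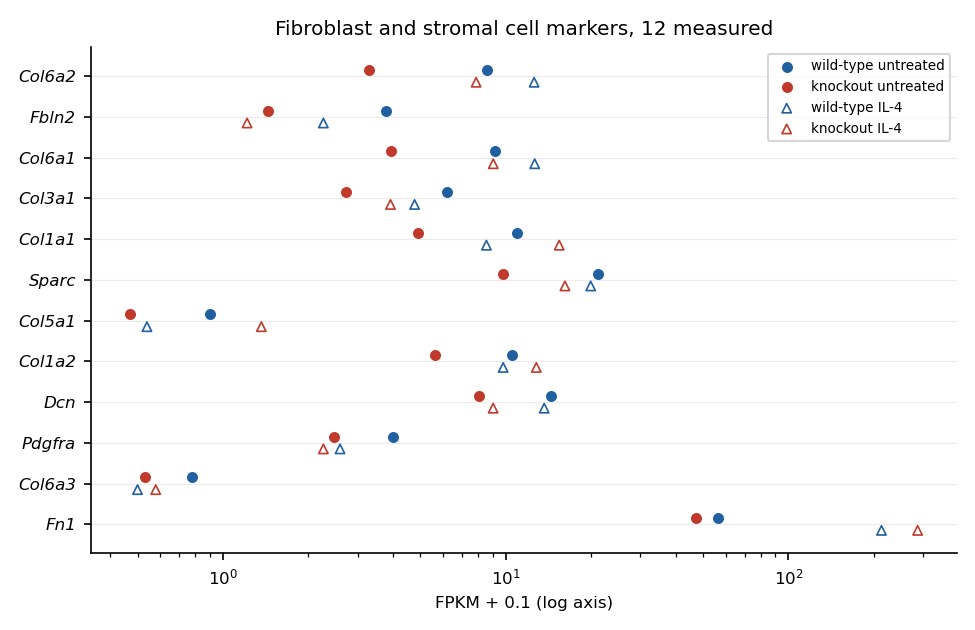
FPKM + 0.1 on a log axis for the 12 measured fibroblast and stromal cell markers in the 4 libraries, ordered by the untreated log2 ratio. Blue is wild-type, red knockout, filled circles untreated and open triangles IL-4. Filled red lies left of filled blue in every row, and for Col1a1, Col5a1, Col1a2, Col6a3 and Fn1 the open red triangle lies right of the open blue one.

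Markers of other cells that a cavity wash can hold were mostly faint. Untreated, 0.945% of all measured genes were called higher and 0.888% lower. Of the 14 mesothelial and epithelial markers only Wt1 reached the read minimum, and it was called lower at 1.98 and 0.9 FPKM. The list summed to 8.54 FPKM for the wild-type and 3.68 for the knockout, and to 17.7 and 10.3 in the IL-4 pair, where 4 of 6 measured members (Lrrn4, Wt1, Krt8 and Krt18) were called lower, where 0.767% of all genes measured in that pair were. The knockout was the lower library in both pairs. Of 3 measured smooth muscle and pericyte markers, the intermediate filament gene Des was called lower (2.29 and 1.29 FPKM). Acta2 had a log2 ratio of -0.67 untreated and 0.77 with IL-4. Haemoglobin reads were few, with Hba-a1 at 44 and 21 reads untreated and not called. The erythroid list summed to 11.49 and 4.9 FPKM untreated and to 9.01 and 4.17 with IL-4. The 15 neutrophil markers gave 6 measured members, none called and a median log2 ratio of -0.15, S100a8 having 35 and 21 reads and Csf3r 41.25 and 40.82 FPKM. The list summed to 60.2 and 56 FPKM, most of it from Csf3r alone, so the sum says little of the other markers. No measured member of the lists for eosinophils, mast cells and basophils, B and plasma cells, dendritic cells, endothelial cells, adipocytes and platelets was called untreated. No T or NK cell marker reached the minimum. Among these lists the mast cell protease Cpa3 had 19 and 40 reads, the B cell receptor gene Cd79a 43 and 30, Vwf 12.23 and 12.74 FPKM, and Fabp4, which macrophages also make, 599.05 and 612.6 FPKM. The mast cell and basophil list summed to 4.86 and 9.46 FPKM untreated (72 and 134 reads) and to 4.3 and 6.25 with IL-4. In the IL-4 pair Cpa3 and Vwf were called higher, with log2 ratios of 1.21 and 0.61. Of all genes measured in that pair 3.98% were called higher. Further members of these lists were Tpsb2 (30 and 37 reads), Siglecf (53 and 57), Cd79b (30 and 23), Ccr7 (41 and 33), Kdr (171 and 157) and Pf4 (133 and 137).

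Macrophage genes themselves were at similar levels. All 15 macrophage identity genes were measured, only Lyz2 was called, and the other 14 summed to 5066 FPKM for the wild-type and 5274 for the knockout (104%). Csf1r, the receptor for the macrophage growth factor, was at 144.57 and 135.4 FPKM and Adgre1, or F4/80, at 68.51 and 72.62. Of 9 measured markers of large resident peritoneal macrophages, Wt1 and Prg4 were called lower and Naip1 higher. Among all measured genes 0.888% were called lower and 0.945% higher. Prg4, or lubricin, was at 5.59 and 3.39 FPKM and was also called lower with IL-4, at 5.37 and 3.53. Naip1, a bacterial sensor of the inflammasome with close paralogs and shared reads, was at 1.57 and 2.84 FPKM. Gata6, the defining transcription factor of these cells, had 54 and 40 reads untreated and was not called (log2 ratio -0.40). In the IL-4 pair Gata6 was called lower, with a log2 ratio of -0.79. Of the 11 list members measured in that pair, 3 were called lower and 0 higher, where 0.767% and 3.98% of all its genes were. Wt1 stands in this list and the mesothelial one. None of 6 measured monocyte and small peritoneal macrophage markers was called, with a median log2 ratio of 0.25 and Itgax, or CD11c, at 44.69 and 54.89 FPKM.

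**Figure D4:**
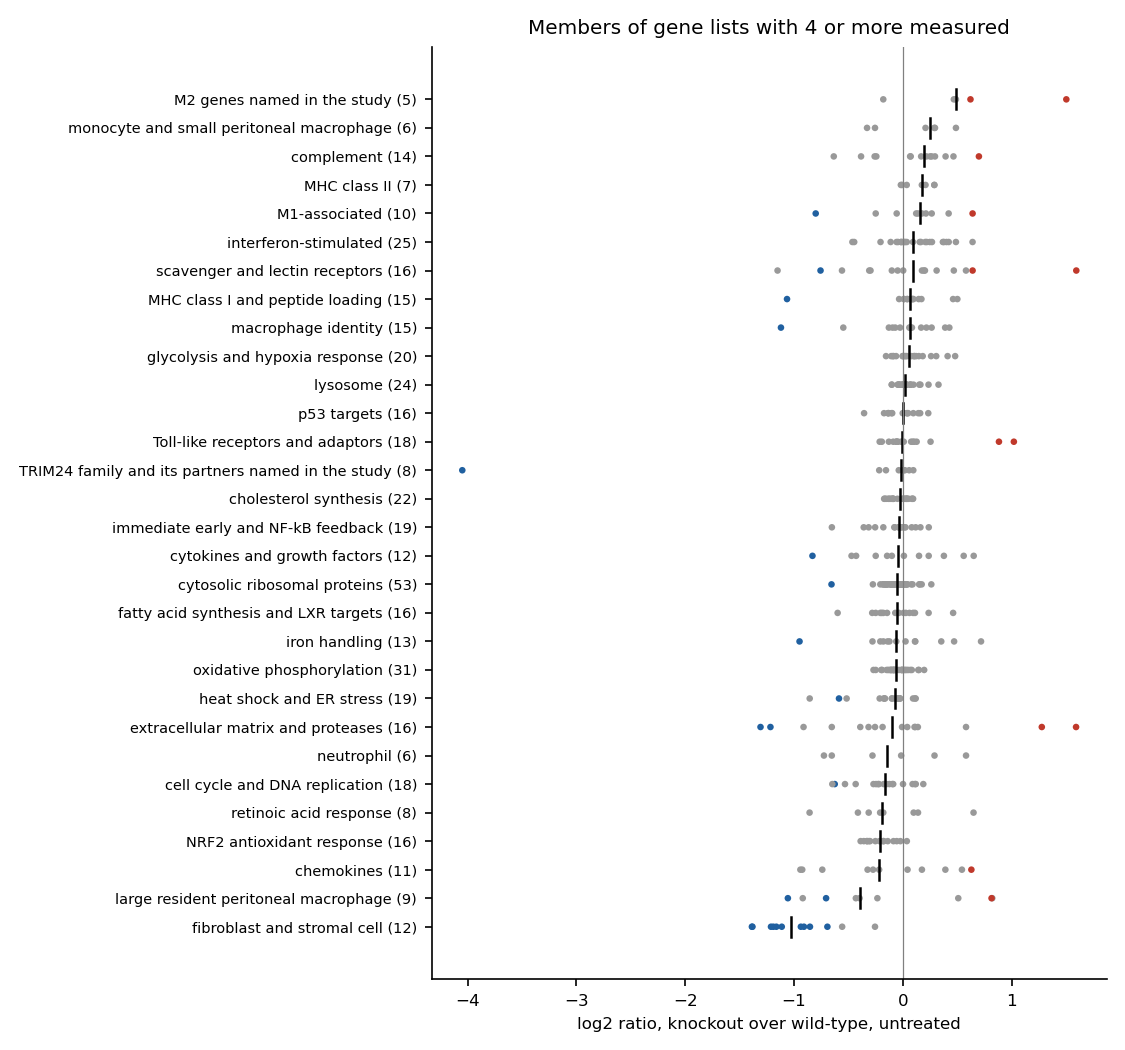
Log2 ratio of knockout over wild-type, untreated, for the measured members of each gene list with 4 or more, 1 point per gene, with the number measured in brackets and the list median as a black bar. Red points were called higher and blue ones lower. The fibroblast and stromal cell list has the lowest median, -1.03, and the others lie between -0.40 and 0.49.

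Single members of several further lists were called lower. With 0.888% of all measured genes called lower, a single call in a list of this size says little of the list. Csf1, which encodes the growth factor of macrophages, was at 3.35 and 1.84 FPKM untreated and at 7.63 and 7.84 with IL-4, and was the 1 called of 12 cytokines and growth factors. Socs3, a feedback inhibitor of cytokine receptors, was at 3.68 and 2.07 FPKM untreated and 4.68 and 4.81 with IL-4. With Marco called higher, Socs3 made the 2 calls among 10 M1-associated genes. Myc (3.84 and 2.26 FPKM), the phosphatase Dusp4 (3.76 and 1.83) and the receptor Il1r1 (1.8 and 0.93), picked after their values were seen, were called lower and had smaller ratios of the same sign with IL-4 (-0.34, -0.22 and -0.20), none of them called there. Tdg, a DNA glycosylase, was at 6.05 and 3.02 FPKM (shared reads) and was called lower in both pairs. Of 53 cytosolic ribosomal protein genes, Rpl30 alone was called, at 432.42 and 274.49 FPKM untreated and 474.8 and 303.75 with IL-4, and its reads were shared with other loci. The asparagine synthetase Asns (12.71 and 8.43 FPKM) was the 1 called of 19 heat shock and ER stress genes, a call lost with TMM scaling (log2 ratio -0.57), without the length trend (-0.57) and with a pseudocount of 1 (-0.54). Also called lower as the 1 of their lists were the topoisomerase Top2a (130 and 82 reads) of 18 cell cycle genes and the metalloreductase Steap4 (55 and 27 reads) of 13 iron handling genes, both lost with a pseudocount of 1.

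No measured member was called in 11 function lists. Over all measured genes 0.945% were called higher and 0.888% lower. Beside the NRF2 list given last, these were 25 interferon-stimulated genes (median log2 ratio 0.09), 7 MHC class II genes (0.18), 16 p53 targets (0.00), 22 cholesterol synthesis genes (-0.03), 16 fatty acid synthesis and LXR targets (-0.05), 20 glycolysis and hypoxia genes (0.06), 31 oxidative phosphorylation genes (-0.06), 24 lysosomal genes (0.02), 19 immediate early and NF-κB feedback genes (-0.03) and 8 retinoic acid response genes (-0.19). Their most abundant members were close in the 2 libraries. The lysosomal genes Ctsd and Gpnmb were at 11712.2 and 11982.2 FPKM and at 8525.91 and 9468.47. Apoe, an apolipoprotein of cholesterol efflux, was at 5690.46 and 5717.67 FPKM and the lipid droplet gene Plin2 at 749.52 and 730.94. Glycolytic Gapdh stood at 1350.9 and 1351.53 FPKM and Aldoa at 944.03 and 942.94. For antigen presentation, Cd74 was at 201.82 and 206.93 FPKM and the protease Ctss at 5861.55 and 5839.08. The 2 libraries differed by at most 1.11-fold for these 8 genes. Of the cholesterol enzymes, Msmo1 was at 95.88 and 95.47 FPKM and Fdft1 at 78.7 and 84.05. The respiratory chain genes Cox4i1 and Atp5b were at 297.88 and 312.5 FPKM and at 305.1 and 287.78. Interferon-induced Oas1a was at 33.39 and 33.41 FPKM and Bst2 at 75.42 and 69.8. The transcription factor genes Jun (76.21 and 72.18 FPKM) and Atf3 (227.95 and 241.26), the p53 targets Mdm2 (39.59 and 37) and Bax (136.5 and 121.11) and the retinal reductase gene Dhrs3 (314.25 and 346.24) were also well within the fold. Among 15 class I and peptide-loading genes H2-Q7 alone was called, and it belongs to the H2-Q group with shared reads above. The NRF2 list, genes of the antioxidant response, lay slightly below 0 across its members. Of its 16 measured genes 15 lay below 0 and 0 were called, with a median log2 ratio of -0.21 untreated and -0.27 in the IL-4 pair. The peroxidase Prdx1 was at 569.19 and 458.73 FPKM untreated and 412.23 and 289.85 with IL-4. The glutathione transferase Gstm1, which has close paralogs, was at 529.46 and 468.57 FPKM.

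For the 94 genes called lower, the IL-4 pair shares differ in their background from those above, since that pair called 0.767% of all its genes lower and 3.98% higher. The sign was the same for 69, the call was the same for 21, and 4 genes were called in the other direction there. The 4 were Timp3, Col1a1, Col5a1 and Lox, a lysyl oxidase that crosslinks collagen. For 34 of the 61 genes called higher with whole counts the IL-4 pair gave the same call, and for 14 of the 74 called lower with whole counts. These sets include genes under the read minimum with IL-4, such as Vsig8 (11 and 22 reads) and Tsku (20 and 13). Such genes could not be called there, while the shares of that pair are over its measured genes only.

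**Figure D5:**
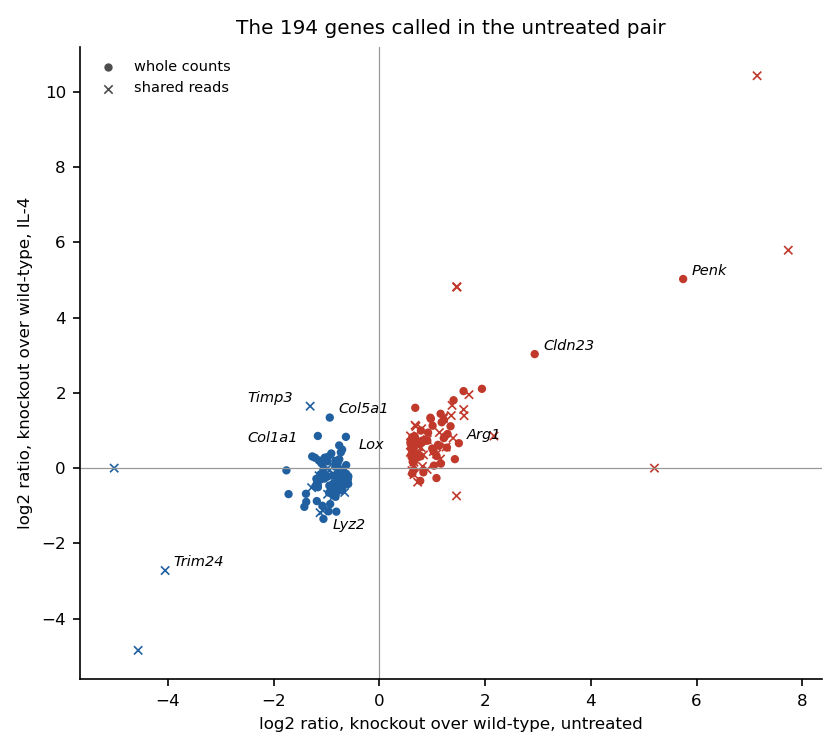
Log2 ratio of knockout over wild-type with IL-4 (vertical) against that of the untreated pair (horizontal) for the 194 genes called in the untreated pair. Red genes were called higher and blue ones lower, circles have whole counts and crosses shared reads. Red points lie mostly above 0, while Timp3, Col1a1, Col5a1 and Lox are the blue points called higher with IL-4.

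Genes near the floxed and the Cre loci were looked at separately, the line having been backcrossed for at least 6 generations. Within 10 Mb of Trim24, 69 other genes were measured and 3 were called (4.35%), beside 0.945% of all measured genes called higher and 0.888% lower. Dennd11 was higher, at 4.09 and 6.61 FPKM, and lies 2.53 Mb further along the chromosome. Smo and Flnc, an actin-binding filamin at 0.83 and 0.45 FPKM, were lower and lie on the other side, at -8.14 and -8.44 Mb. Dennd11 was also called higher with IL-4 (2.37 and 7.4 FPKM), and Flnc was measured but not called there. Smo had 18 and 23 reads with IL-4, under the read minimum, and could not be called. All 3 untreated calls were lost with a pseudocount of 1, where the log2 ratio of Dennd11 was 0.58. Within 10 Mb of Lyz2, 0 of 63 other measured genes were called.

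An additive model over all 4 libraries, with genotype and IL-4 as terms and 1 residual degree of freedom, was fitted with edgeR's quasi-likelihood test. It gave 152 of 11791 genes higher in the knockout (1.29%) and 44 lower (0.373%). These counts moved widely, to 60 and 8 with DESeq2, 18 and 6 with every gene that had a read, and 399 and 225 with the length trend as an offset. Of the 100 genes called higher in the untreated pair 63 passed it in that direction, as did 29 of the 94 called lower. The model treats the IL-4 pair as a repeat of the untreated one and contains the untreated pair itself. Slpi (adjusted p = 1.02e-06), Fstl1 (1.59e-06), Cldn23 (3.72e-05) and Chil3 (0.0012) passed with positive log2 differences of 1.82, 1.25, 3.24 and 0.76. Lyz2 (1.51e-05), Col6a2 (0.00222) and Fbln2 (0.00297) passed with negative ones, -1.15 for Lyz2 and -1.24 for Fbln2, and Col1a1 did not pass.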

How the data were processed

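Total RNA of mouse peritoneal macrophages was sequenced in 4 libraries, 1 per genotype and treatment, grouped by their labels. The authors' alignment used Bowtie on GRCm38 (mm10) and their quantification RSEM. Versions are not given in the sources used here, nor is whether counting used strand. The authors deposited, per gene and library, the expected count (reads assigned by RSEM, not whole where reads match several genes) and FPKM (that count scaled by effective transcript length and library total). Genes not listed in a library were set to 0. Of 16403 gene IDs, 16365 were found by ID in RefSeq's genes of GRCm38.p6. Coding sequences were read from GENCODE M21.

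Ratios are log2 of FPKM + 0.1, which understates changes of low genes. Genes with at least 50 expected reads summed over the pair were called measured. Two-sided Fisher's exact tests used rounded expected counts and library totals (11026033 to 11250099 reads, smallest showable share 0.267 to 0.272 CPM at 3 reads), adjusted by Benjamini-Hochberg over the 15623 genes that either library had a read for (SciPy 1.17.1). Calls needed a fold past 1.5 and an adjusted p below 0.05, the study's thresholds. Counts within 0.005 of a whole number were taken as whole. SE comes from the reciprocals of the 2 counts, each with 0.5 added. Without molecular identifiers fragments may be copies of each other, so intervals and floors cover counting error only. The additive model used edgeR 4.0.16 (TMM, filterByExpr), with DESeq2 1.42.0 as an alternative. Both tests were checked on simulated data.

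Named were Trim24, Lyz2, Lyz1, the 15 highest and 15 lowest called genes with whole counts, the 5 highest and 5 lowest with shared reads, called members of 41 gene lists or else the 2 of highest FPKM, the study's 8 M2 genes and called genes within 10 Mb of Trim24 or Lyz2. The members and lists were chosen with earlier results of these data known. Alternatives were pseudocounts of 0.01 and 1, other read minimums, TMM, CPM, a fold of 2, assumed biological variation, whole counts alone and a removed length trend. One gene that met no fixed rule is not reported here.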

Additional observations from a re-analysis of the deposited data

Results flagged for a closer look

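For 4 genes the knockout library was called lower untreated and higher with IL-4. With 1 library per group the difference between the 2 ratios was not tested. The log2 genotype ratio with IL-4 minus that without was 2.95 for Timp3, 2.02 for Col1a1, 2.28 for Col5a1 and 1.46 for Lox. Timp3 (wild-type first) was at 1.46 and 0.53 FPKM untreated, and at 0.99 and 3.31 with IL-4, with shared reads. Col1a1 was at 10.89 and 4.81 FPKM untreated and at 8.46 and 15.38 with IL-4. Col5a1 was at 0.8 and 0.37 FPKM, and at 0.44 and 1.27. Lox was at 3.03 and 1.92 FPKM, and at 1.53 and 2.8. In the wild-type each of the 4 was lower with IL-4 than without it, and in the knockout each was higher. The stromal markers Col6a2, Dcn and Fbln2, by comparison, were called lower in both pairs.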

How the results depend on the processing

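The limits of these values are that each group is 1 library, that shared reads bear on 59 of the calls, and that many genes called lower rest on under 100 reads. No paired analysis was possible because each group holds 1 library and the labels give no replicate numbers. The changes in the untreated counts came with fewer genes, a higher fold, a larger assumed spread, or a larger pseudocount, which shrinks the ratios of low genes. Of the 100 genes called higher and 94 called lower, 60 and 42 were called with a minimum of 200 reads, 44 and 31 with a fold above 2, and 35 and 18, 6 and 3, and 4 and 3 when the biological coefficient of variation was assumed to be 0.1, 0.2 and 0.4. With whole expected counts only, 61 were called higher (74 lower), and with a pseudocount of 1, 53 lower (71 higher). Pseudocount 0.01, TMM, CPM, a minimum of 1 read and removal of a length trend left both counts within 1.5 times. The 152 higher and 44 lower genes of the additive model became 60 and 8 with DESeq2, 18 and 6 with every gene with a read, and 399 and 225 with the length trend as an offset; the cause was not tested. Over 620 recomputed ratios of 124 named genes none changed sign after being called, 20 called ones lost the call, 18 of them with a pseudocount of 1, and 3 of 200 list medians moved by more than the counting error.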

Other observations

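Stat6 binds the palindrome TTCNNNNGAA, and the promoters of called genes were searched for it. The windows run from 250 bases before to 50 after the start in a RefSeq table of GRCm38.p6, which held 73 of the 100 genes called higher and 69 of the 94 called lower. The motif, its own reverse complement so that 1 search covers both strands, was in 1 promoter of a gene called higher (1.37%, Def8) and in 3 of genes called lower (4.35%, Bgn, L1cam and Top2a). It was in 5.29% of the 8562 promoters of measured genes and in 6.99% of all 27025. A match is a description of these letters in this window only.

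Transcript length moved weakly with the untreated ratio. Across 10168 genes, which are not independent replicates, Spearman's rho was 0.139. The median transcript length was 2199 bases for genes called higher, 3194 for genes called lower and 2866 for measured genes. With the length trend removed, 95 of the 100 higher and 88 of the 94 lower calls were made again in the same direction.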
